A study of Mus musculus with 24 samples.

Results

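This report compares liver gene expression at lights on (ZT0) with that 4 h later (ZT4) in wild-type mice, where ZT counts hours from lights on. Its members are the 2 arrays labelled WT ZT0 and the 2 labelled WT ZT4, 4 of the 24 arrays of the series. The mice were 20-week-old males on a C57Bl6/J background, and the wild-type animals were of the Reverbalpha/beta strain negative for the albumin-driven Cre recombinase (Alb Cre-). The other genotype carried Alb Cre and is labelled as a double knockout (DKO) of Rev-erb alpha and beta, with Cre under the albumin promoter, which is active in hepatocytes. Each genotype was sampled at 6 times of day, ZT0 to ZT20. The labels call the 2 arrays of a group technical replicates, so each group stands for 1 RNA sample, and the sources used here do not give the number of animals behind it. All 4 arrays lay on 1 slide, with ZT0 and ZT4 at different positions on it, so position and time cannot be told apart. With 1 RNA sample per time there is no measure of the spread between animals, and sizes are given without a test.

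Mice eat mainly at night, and ZT0 to ZT4 covers the end of feeding and the start of the daily rest. The liver clock is a feedback loop in which BMAL1 and CLOCK drive the genes of their own repressors, the PER and CRY proteins, through E-box sequences. In a further loop the nuclear receptors REV-ERB alpha and beta, encoded by Nr1d1 and Nr1d2, repress the BMAL1 gene Arntl, and factors such as DBP and TEF carry the rhythm to output genes through D-box sequences. Insulin, nutrients and fasting signals act on lipid, glucose and protein metabolism over the same hours.

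Values are log2 intensities after background correction and quantile normalisation, for 7272 genes. On the 4 arrays 8965 to 9422 probes were detected (34.9% to 36.7% of all), with raw median intensities of 274 to 284 and 39.4 to 40.6 beads per probe on average. The tissue label was checked on 11 measured hepatocyte markers, which include albumin (Alb) and transthyretin (Ttr). Their summed intensity was 594219 at ZT0 and 606058 at ZT4, their median difference was 0.01, and none was 2-fold apart. Over all genes the 2 arrays of a time had a correlation of 0.9915, and the SD between them was 0.206 at either time. Nr1d1 and Nr1d2, the genes targeted in DKO, also gave signals on the DKO arrays (8.81 to 11.03 and 9.58 to 10.14 as means of a time), so these probes do not check the genotype.

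The arrays labelled WT ZT4 stood apart from the rest of the wild-type day at several genes. Moxd1, a gene related to dopamine beta-hydroxylase, was at 11.87 and 11.95 on them. At the 5 other wild-type times its means lay between 5.50 and 5.84 with no array detected, whereas the 6 DKO means lay between 8.95 and 13.27 with 12 of 12 arrays detected. In all, 5 of the genes called higher at ZT4 were detected in wild type on the ZT4 arrays alone, and 2 of them, Moxd1 and Wfdc12, were detected on 12 of 12 DKO arrays. Wfdc12 was at 8.57 at ZT4, between 5.69 and 6.74 at the other wild-type times and between 9.04 and 10.85 in DKO. Tff3, Fabp5 and Gldn were dimmer, at 7.73, 7.52 and 7.59 at ZT4. They were detected on 8, 6 and 4 of 12 DKO arrays. Genes detected at another wild-type time alone were not counted, so the count of 5 has no such comparison. Probes were kept only if detected on both arrays of at least 2 of 12 groups. Genes detected in wild type at ZT4 alone therefore had to be detected in some DKO group to be measured. ZT4 below means the arrays with that label. No other wild-type ZT4 sample was available to give the results without them, and whether the RNA matches its label was not tested. Nr1d1 does not separate the genotypes in this way, since its wild-type means ranged from 6.42 to 10.51 over the day.

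A gene was called where the arrays of the 2 times did not overlap, the measured means were at least 2-fold apart, and both arrays of the higher time detected it. By this rule 76 of 7272 genes (1.05%) were higher at ZT4 and 47 (0.646%) were lower. In 46 of the rises and 27 of the falls even the nearest arrays of the 2 times were 2-fold apart. At a minimum of 1.5-fold the counts were 343 (4.72%) and 323 (4.44%). Of all 7272 genes 3704 had a difference above 0 and 3568 below 0. These counts and the shares above are the background for the list counts below. Of the 76 rises, 36 were detected on neither ZT0 array, and of the 47 falls 7 were detected on neither ZT4 array, so that the fold of these is a lower bound. With these genes at their bound, 48 rises and 42 falls were at least 2-fold, and 9 rises and 1 fall at least 4-fold. For comparison, 80 genes were at least 2-fold apart between the 2 arrays of ZT0 and 84 between those of ZT4, of which 5 and 15 were detected on both arrays.

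**Figure D1:**
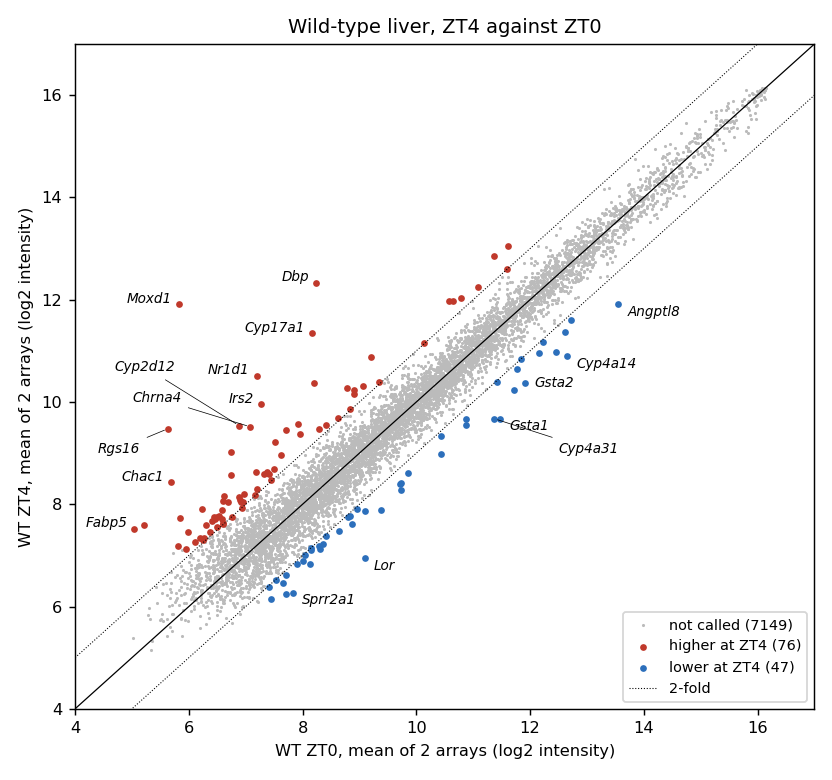
Mean log2 intensity of each gene at ZT4 (vertical axis) against ZT0 (horizontal axis) in wild-type liver, 1 point per gene, each a mean of 2 technical arrays. Red points are the 76 genes called higher at ZT4 and blue points the 47 called lower, and the dotted lines mark a 2-fold difference. Moxd1 and Dbp lie farthest above the diagonal.

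The largest rise was that of Moxd1, from 6.04 and 5.62 on the ZT0 arrays, a difference of 6.08 on the log2 scale and at least 28.0-fold. A further probe of Moxd1 gave a difference of 4.32. Rgs16, which speeds the switching off of G protein signals, was at 5.82 and 5.44 at ZT0 and at 9.49 and 9.46 at ZT4, at least 5.19-fold higher. Neither gene was detected at ZT0 and both were detected on each ZT4 array. Cyp17a1, a steroid hydroxylase and lyase, was at 8.46 and 7.89 against 11.32 and 11.38, which is 9.06-fold higher. Chac1, an enzyme that degrades glutathione, was at 5.63 and 5.74 against 8.25 and 8.60, at least 2.51-fold higher. Irs2, the adaptor that carries the insulin signal from its receptor in liver, was at 7.01 and 7.53 against 10.05 and 9.86, a 6.42-fold rise with 1 of 2 ZT0 arrays detected. That the ZT4 arrays of these genes lie clear of those of ZT0 is required by the call rule. Cyp2d12, a cytochrome P450, was at 6.97 and 6.80 against 9.60 and 9.47, at least 5.41-fold higher, although probes of this family can share targets. Fabp5, a fatty acid-binding protein, was at 5.12 and 4.96 against 7.33 and 7.71, a dim signal with a bound of at least 1.34-fold. Chrna4, a nicotinic acetylcholine receptor subunit, was at 7.25 and 6.90 against 9.43 and 9.60, 5.42-fold higher with 1 of 2 ZT0 arrays detected.

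The falls were smaller than the largest rises. Lor, which encodes loricrin of the epidermal barrier, was at 9.20 and 8.99 at ZT0 and at 6.64 and 7.24 at ZT4, 4.46-fold lower, with 1 of 2 ZT4 arrays detected. The glutathione S-transferase Gsta1 was at 11.45 and 11.49 against 9.57 and 9.77, 3.50-fold lower, and its close relative Gsta2 was 2.90-fold lower. Cyp4a14, a fatty acid omega-hydroxylase known as a target of PPAR alpha, was at 12.65 and 12.66 against 10.94 and 10.83, 3.40-fold lower. Cyp4a31 of the same family was 3.24-fold lower. Probes within each of these families can share targets, so the separate values are uncertain. Angptl8, a secreted inhibitor of lipoprotein lipase induced by feeding, was at 13.53 and 13.57 at ZT0 and at 12.01 and 11.81 at ZT4. It was 3.12-fold lower and was detected on all 4 arrays. Inhba, a subunit of activin, was at 9.40 and 9.35 against 8.18 and 7.60, 2.80-fold lower. Phlda1 was 2.79-fold lower and Fam25c 2.78-fold lower, and the small proline-rich gene Sprr2a1 was at least 1.76-fold lower, being detected on neither ZT4 array.

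Among the 22 measured clock genes 4 were called higher, Nr1d1, Nr1d2, Dbp and Tef, and 1 lower, Usp2. Over all genes the shares were 1.05% and 0.646%. Nr1d1 was at 7.04 and 7.34 at ZT0 and at 10.46 and 10.57 at ZT4, 9.99-fold higher, and a further probe gave a log2 difference of 3.58. Nr1d2 was at 7.82 and 7.59 against 9.49 and 9.42, 3.36-fold higher. Dbp was at 8.12 and 8.35 against 12.30 and 12.37, 17.1-fold higher, the largest fold among genes detected on all 4 arrays. Tef was at 8.12 and 7.73 against 9.61 and 9.54, 3.14-fold higher, while a further Tef probe differed by 0.29. Usp2, a deubiquitinating enzyme under clock control, was at 9.04 and 9.15 against 7.87 and 7.86, 2.35-fold lower, while a further probe differed by -0.06. The Tef and Usp2 calls were lost when the probes of a gene were averaged.

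The other clock genes were less than 2-fold apart. Of 6 measured activators and receptors, Arntl differed by 0.15, Clock by -0.14 and Rora by 0.28 on the log2 scale, and Npas2 was not detected at either time. A further Clock probe differed by -0.99, so the 2 probes of this gene disagree in size. Of 6 measured repressors none was called. Ciart, a repressor of BMAL1 and CLOCK, was at 6.65 and 6.15 at ZT0, where neither array detected it, and at 7.37 and 7.07 at ZT4, where both did. It was called at the 1.5-fold minimum, with a difference of 0.82. Per1 differed by -0.43, Per2 by 0.28, Cry2 by 0.60 and Bhlhe40 by 0.02, and Per3 was not detected. Of 10 measured output genes, Nfil3, which encodes a repressor that competes at D-boxes, differed by 0.79 and was called at the 1.5-fold minimum. Alas1, the first enzyme of heme synthesis, differed by 0.44 and Nampt, of NAD synthesis, by 0.22. Noct differed by 0.17 (0.62 on a further probe), Leo1 by 0.35, Cirbp by -0.09 and Tfrc by -0.03.

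**Figure D2:**
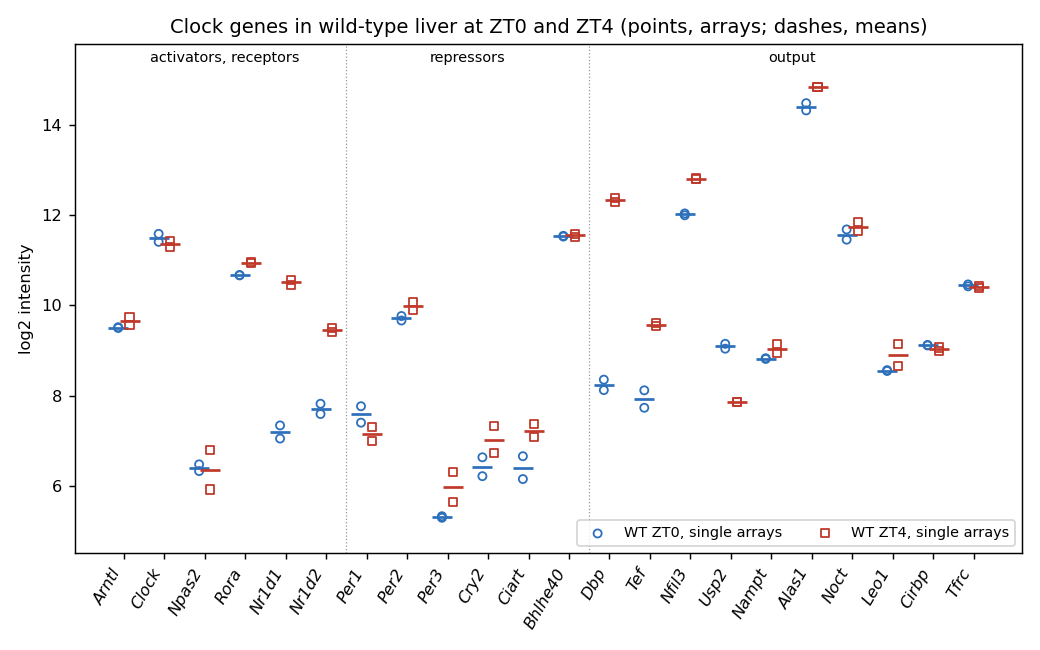
Log2 intensity (vertical axis) of the 22 measured clock genes at ZT0 (blue circles) and ZT4 (red squares) in wild-type liver. Points are single technical arrays and dashes their means. On the probes shown Nr1d1, Nr1d2, Dbp and Tef are higher at ZT4 and Usp2 is lower. Further probes of Tef and Usp2, not shown, differed by 0.29 and -0.06.

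Promoter sequences were searched for clock motifs because clock genes and metabolic regulators were both among the rises. The windows run from 250 bases before to 50 bases after an annotated start (RefSeq, GRCm38.p6) and were found for 56 of the 76 rises, 36 of the 47 falls and 5962 of all 7272 genes. The motifs were the E-box CACGTG, the D-box TTANGTAA, the cyclic AMP element TGACGTCA and the RORE, the element bound by ROR and REV-ERB receptors, on either strand. The E-box and the cyclic AMP element read the same on both strands. An E-box was in 9 of 56 rises (16.1%), 3 of 36 falls (8.33%) and 12.3% of all genes. A D-box was in 1.79%, 5.56% and 2.03%, and a RORE in 0 of 56, 1 of 36 and 0.537%. The cyclic AMP element was in 1 of 56, 0 of 36 and 3.46%. The windows of Tef, Ciart, Irs2 and Bcl6 are printed in lower case with the E-box in capitals. They are shown because Tef and Ciart belong to the clock, and Irs2 and Bcl6 are regulators of metabolism among the rises, and each holds a match. Tef has an E-box in each of its 2 windows, 127 and 138 bases before the start. Ciart has 3, at 116, 58 and 44 bases before it, Irs2 has 1 at 44 bases and Bcl6, a transcriptional repressor, has 1 at 60 bases in its first window and none of the motifs in its second, which is not printed. The windows of Nr1d1, Nr1d2, Dbp, Usp2, Moxd1, Rgs16, Chac1 and Angptl8 held none of the 4 motifs, which says only that these letters are not in them. The positions are chr15:81802423-81802722 (plus strand) and chr15:81811164-81811463 (plus) for Tef, chr3:95882179-95882478 (minus) for Ciart, chr8:11008880-11009179 (minus) for Irs2 and chr16:23988803-23989102 (minus) for Bcl6.
Tef, first window: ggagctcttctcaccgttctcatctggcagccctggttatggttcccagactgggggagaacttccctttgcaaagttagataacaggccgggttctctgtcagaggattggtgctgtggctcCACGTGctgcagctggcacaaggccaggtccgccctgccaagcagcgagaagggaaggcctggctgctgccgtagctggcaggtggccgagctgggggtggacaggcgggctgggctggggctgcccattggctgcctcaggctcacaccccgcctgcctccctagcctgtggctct
Tef, second window: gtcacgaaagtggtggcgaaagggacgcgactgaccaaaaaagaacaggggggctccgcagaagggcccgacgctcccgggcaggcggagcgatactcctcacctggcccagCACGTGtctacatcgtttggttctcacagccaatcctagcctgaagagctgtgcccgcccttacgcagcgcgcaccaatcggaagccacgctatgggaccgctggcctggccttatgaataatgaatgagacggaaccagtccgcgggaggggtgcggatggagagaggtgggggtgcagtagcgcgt
Ciart: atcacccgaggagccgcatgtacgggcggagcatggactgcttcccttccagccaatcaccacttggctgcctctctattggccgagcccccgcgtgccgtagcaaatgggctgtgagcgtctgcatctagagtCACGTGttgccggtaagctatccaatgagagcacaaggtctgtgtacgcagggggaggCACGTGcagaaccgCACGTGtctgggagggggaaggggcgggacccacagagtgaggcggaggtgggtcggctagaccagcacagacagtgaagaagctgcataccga
Irs2: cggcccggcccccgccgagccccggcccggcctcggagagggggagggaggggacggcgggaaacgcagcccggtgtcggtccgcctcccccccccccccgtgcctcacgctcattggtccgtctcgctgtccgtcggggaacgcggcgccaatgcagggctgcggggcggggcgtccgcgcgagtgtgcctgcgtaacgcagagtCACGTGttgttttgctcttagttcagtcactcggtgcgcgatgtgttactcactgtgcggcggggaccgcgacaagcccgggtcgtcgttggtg
Bcl6: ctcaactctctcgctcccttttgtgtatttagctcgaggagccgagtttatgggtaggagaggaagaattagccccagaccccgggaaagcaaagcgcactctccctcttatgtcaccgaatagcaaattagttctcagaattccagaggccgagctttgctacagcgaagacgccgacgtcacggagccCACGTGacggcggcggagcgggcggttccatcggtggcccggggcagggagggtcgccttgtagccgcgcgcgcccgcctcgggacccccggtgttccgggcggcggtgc

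In the lipogenesis list more genes were called higher than lower at ZT4. Of 21 measured lipogenesis genes 4 were called higher and 1 lower, 8 and 1 at the 1.5-fold minimum, and the median difference was 0.52 against 0.01 over all genes. Over all genes 1.05% were called higher and 0.646% lower, and 4.72% and 4.44% at the 1.5-fold minimum. Beside Fabp5, the called members were Lpin1, a phosphatidate phosphatase, at 8.34 and 8.48 against 9.58 and 9.54 (2.21-fold), and Acsl3, which activates fatty acids, at 9.37 and 9.33 against 10.33 and 10.43 (2.04-fold). Thrsp, a lipogenic regulator, was at 11.54 and 11.66 against 12.63 and 12.58 (2.01-fold). The synthesis enzymes Acaca, Fasn and Acly were not called, with log2 differences of 0.73, 0.60 and 0.52. Their regulator Srebf1 differed by 0.23. Scd1 differed by -0.13. Elovl3, which lengthens very long fatty acids, went the other way, at 11.86 and 11.83 against 10.92 and 10.76, 2.00-fold lower at the edge of the rule. The calls of Fabp5, Lpin1, Acsl3 and Elovl3 were lost on the authors' values. Thrsp, with a log2 difference of 1.005, also lay at the edge of the rule. Its call was not followed in the other settings.

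No cholesterol gene was called. Of 18 measured, 15 were above 0 with a median difference of 0.40. On the probes used none reached 2-fold and 3 reached 1.5-fold. These were Insig1, which retains the sterol sensor in the endoplasmic reticulum, at 0.98, Dhcr7 at 0.69 and Nsdhl at 0.61. Further probes of Insig1 differed by 0.48 and 1.06. Hmgcs1 differed by 0.30 and Srebf2, the regulator of the pathway, by -0.27. Genes of triglyceride storage and transport outside these lists were called in both directions. Lpl, lipoprotein lipase, was at 11.38 and 11.36 against 12.90 and 12.79, 2.79-fold higher. G0s2, an inhibitor of fat breakdown, was at 12.73 and 12.71 against 11.67 and 11.55, 2.16-fold lower. The lipid droplet gene Plin4 was 2.38-fold lower and Mfsd2a, which carries lysophospholipids, was 2.16-fold lower.

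Of 26 fatty acid oxidation and ketogenesis genes 2 were called lower and none higher, with 19 below 0 and a median of -0.20. Over all genes 0.646% were called lower, and 3568 of 7272 were below 0. The called genes were Cyp4a14 and Acot1, a thioesterase at 12.17 and 12.28 against 11.16 and 11.18, 2.07-fold lower, whose relatives can share its probe. Ppara, which encodes the receptor that drives this pathway, differed by 0.68 in the other direction, and Fgf21, a fasting hormone, by 0.53. Of 15 genes of gluconeogenesis and fasting signals Irs2 alone was called, and the median was 0.04. Pck1 differed by 0.32 and G6pc by 0.22. No gene was called among 7 of glycolysis and insulin-induced genes (median -0.02) or 8 of glycogen metabolism (median 0.07). In glycogen metabolism the largest difference was -0.56 for Ppp1r3b, a subunit that directs a phosphatase to glycogen. Among the 26 genes of amino acid catabolism and the urea cycle none was called, and the largest difference was -0.51 for Hal, which breaks down histidine.

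Of 17 measured chaperones of the endoplasmic reticulum 1 was called higher and none lower. At the 1.5-fold minimum 7 were higher, 15 were above 0 and the median was 0.43. Over all genes 4.72% were higher at 1.5-fold, and 3704 of 7272 were above 0. Hyou1 was at 7.14 and 7.26 against 8.36 and 8.24, 2.15-fold higher, a call lost with an offset of 50, without background correction and on the authors' values. Calr differed by 0.87 and Hspa5, the main chaperone of the compartment, by 0.74. The genes of the amino acid response did not move as a group, with 1 of 11 called higher and 1 lower and a median of 0.13. Chac1 was the rise, and Ddit3, which encodes CHOP, was at 9.78 and 9.67 against 8.27 and 8.31, 2.71-fold lower. Atf4, which encodes the factor that drives them, differed by -0.62. Of 15 heat shock genes none was called and the largest difference was 0.78 for Hsp90aa1.

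Detoxification genes were split. Of 50 measured, 3 were called higher and 3 lower, against 1.05% and 0.646% of all genes, and the median was -0.06. The rises were Cyp17a1, Cyp2d12 and Gstm3, the last at least 1.19-fold, and the falls were Gsta1, Gsta2 and Gsta4. Gsta4 was at 12.21 and 12.11 against 10.87 and 11.04, 2.31-fold lower. Of 19 bile acid genes none was called, and the largest difference was 1.00 for Nr5a2, a nuclear receptor of bile acid synthesis, just short of the 2-fold limit, while a further probe differed by 0.37, and Cyp7a1, the rate-limiting enzyme, differed by 0.14. None of 13 heme genes was called, the largest difference being -0.71 for Hmox1, and none of 12 NAD genes, the largest being 0.58 for Naprt, whose other probes differed by -0.18 to 0.17.

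Of 15 measured genes in the immediate early list 2 were called higher and 1 lower, against 1.05% and 0.646% of all genes. Beside Rgs16, Gadd45a, a growth arrest gene, was at 8.19 and 8.37 against 9.50 and 9.46, 2.29-fold higher. Fos was at 7.49 and 7.41 against 6.09 and 6.22, at least 1.36-fold lower. In the growth hormone list, of 12 measured genes, Bcl6 was at 11.59 and 11.64 against 13.02 and 13.09, 2.72-fold higher, and Elovl3 was the fall. Among 11 cell cycle genes only Gadd45a was called. None of 17 glucocorticoid targets was called. The largest difference among them was -0.87 for Tsc22d3, of which a further probe differed by -0.03. The cathepsin Ctsl was at least 1.49-fold higher as the single call among 21 autophagy and lysosome genes, and the serum amyloid Saa3 was at 10.86 and 10.90 against 9.59 and 9.74, 2.32-fold lower, as the single call among 25 acute phase genes. Among 27 interferon genes none was called, the largest difference being 0.90 for Usp18, whose further probes differed by 0.83 and 1.05. Bbc3, a promoter of cell death, was at 9.27 and 9.12 against 10.89 and 10.88, 3.23-fold higher. The liver transcription factors Foxa1 and Hhex were 2.49-fold and 2.38-fold lower.

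Subunits of the respiratory chain and the ribosome gave 1 call. For the counts that follow, 3568 of all 7272 genes were below 0. Of 69 respiratory chain genes 58 were below 0, with a median of -0.26, and Cox7a1 was called at 9.13 and 8.78 against 8.02 and 7.79, 2.07-fold lower. That call was lost in 5 settings, among them without ZT0 array 1 (-0.88) and without ZT4 array 2 (-0.94). Of 54 cytosolic ribosomal protein genes 42 were below 0, with a median of -0.19 and none called. Of 37 proteasome genes 25 were below 0 with a median of -0.13. None of 7 tubulins or 9 Kruppel-like factors was called, the largest differences being 0.60 for Tubb5 and -0.57 for Klf2. Among 140 solute carriers 2 were called higher, Slc1a4 (at least 1.12-fold) and Slc13a2 (2.08-fold), and the median was 0.03. The 16 pericentral and 16 periportal genes had medians of 0.06 and 0.09, with Slc1a4 and Gstm3 the pericentral calls. None of the periportal genes was called, and Etnppl among them differed by -0.97, with a further probe at -1.005.

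Markers of other liver cells were measured beside these groups. Of 11 Kupffer cell and macrophage markers 9 were below 0, with a median of -0.41, and their summed intensity was 16682 at ZT0 and 12543 at ZT4, within the range of 10815 to 18228 over the wild-type day. None was called and 4 reached 1.5-fold lower, among them the complement gene C1qc at -0.67 and Folr2 at -0.90, and Marco was not detected at either time. Of all genes 4.44% reached 1.5-fold lower, and 3568 of 7272 were below 0. In whole liver fewer cells of a type and less RNA per cell cannot be told apart. Of 14 endothelial markers 10 were below 0 with a median of -0.23. Their summed intensity was 31712 at ZT0 and 28933 at ZT4, the highest and the lowest of the wild-type day. All 3 measured blood markers were below 0, with a median of -0.58 and summed intensities of 65396 and 44968. The sum at ZT0 was the highest of the wild-type day, of which the lowest was 26603. The later wild-type times in these ranges lay on another slide. Of 9 stellate and fibroblast markers Des was called, at 7.07 and 6.45 against 7.60 and 7.92, at the 2.00-fold edge. Neutrophil, lymphocyte, cholangiocyte, and pancreas and gut lists had 4, 2, 2 and 3 measured genes and none was called. The part of these markers in the differences of other genes was not tested.

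**Figure D3:**
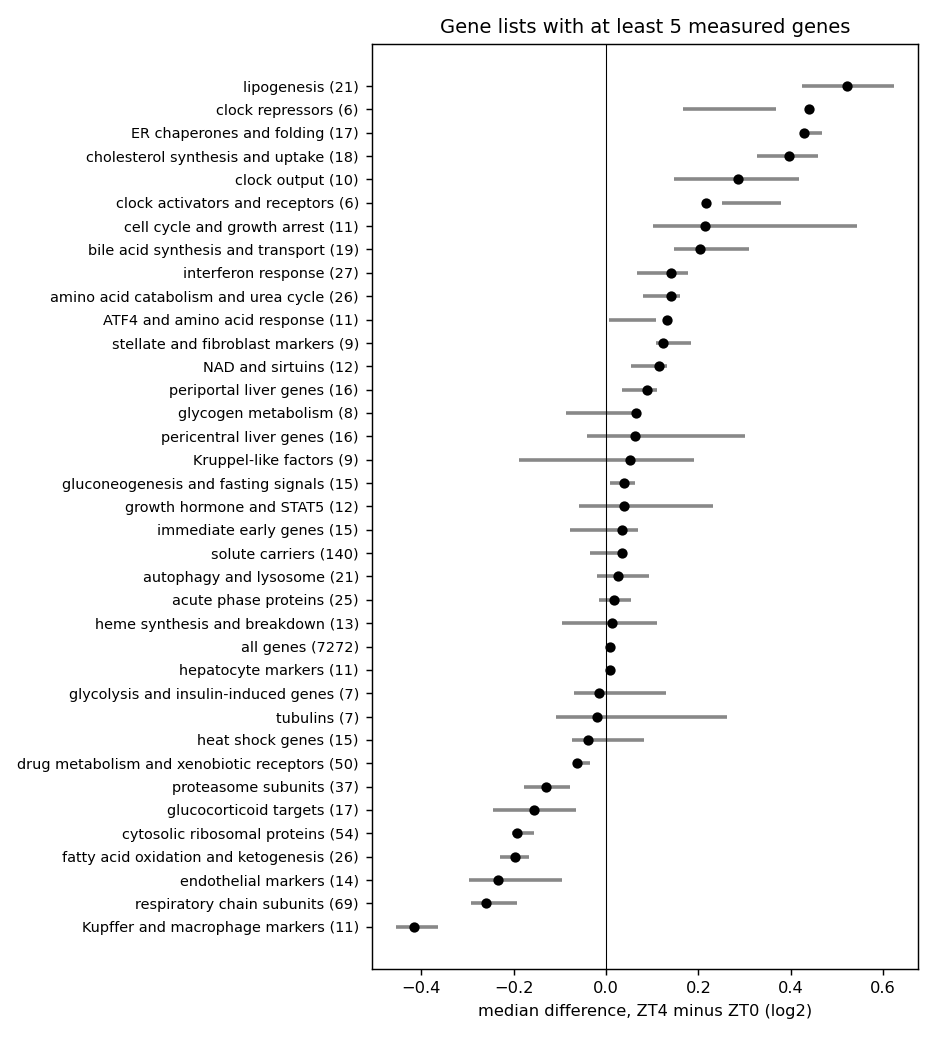
Median log2 difference, ZT4 minus ZT0 (horizontal axis), for each gene list with at least 5 measured genes, with the number measured in brackets. Points are medians of mean differences and grey bars span the 4 medians from single pairs of technical arrays, which need not hold the point in short lists. Lipogenesis lies at 0.52 and Kupffer markers at -0.41, with all genes at 0.01.

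Some genes were detected on both arrays of 1 time and on neither of the other. By level the leading ones at ZT4 were Moxd1, Cyp2d12, Rgs16, Ntrk2 and Wfdc12. Ntrk2, a neurotrophin receptor, was at 6.69 and 6.78 against 9.14 and 8.89, at least 3.76-fold higher, while a further probe differed by 0.82. Wfdc12, a protease inhibitor of the WAP family, was at 6.68 and 6.80 against 8.54 and 8.61, at least 2.77-fold higher. At ZT0 the leading ones were Acin1, Tnnc1, Sprr2a1, Col27a1 and Nop2, dim genes with bounds of at least 2.17-fold, 2.00-fold, 1.76-fold, 1.62-fold and 1.57-fold.

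The size of the ZT0 to ZT4 step was set beside the other 4 h steps whose times share a slide. In wild type 63 genes (0.866%) were higher and 45 (0.619%) lower from ZT8 to ZT12, 70 (0.963%) and 77 (1.06%) from ZT12 to ZT16, and 57 (0.784%) and 50 (0.688%) from ZT16 to ZT20. The counts of 76 and 47 from ZT0 to ZT4 were close to these. The SD of all differences was 0.399, against 0.339, 0.383 and 0.342 in the later steps, and within-group SDs on their slide were lower (0.161 to 0.178). In DKO the steps gave 82 (1.13%) and 80 (1.1%) from ZT4 to ZT8, 50 (0.688%) and 46 (0.633%) from ZT8 to ZT12, and 65 (0.894%) and 54 (0.743%) from ZT16 to ZT20. The DKO step from ZT0 to ZT4 was the largest of the 8, with 97 (1.33%) higher and 230 (3.16%) lower. Steps that share a time are not independent.

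**Figure D4:**
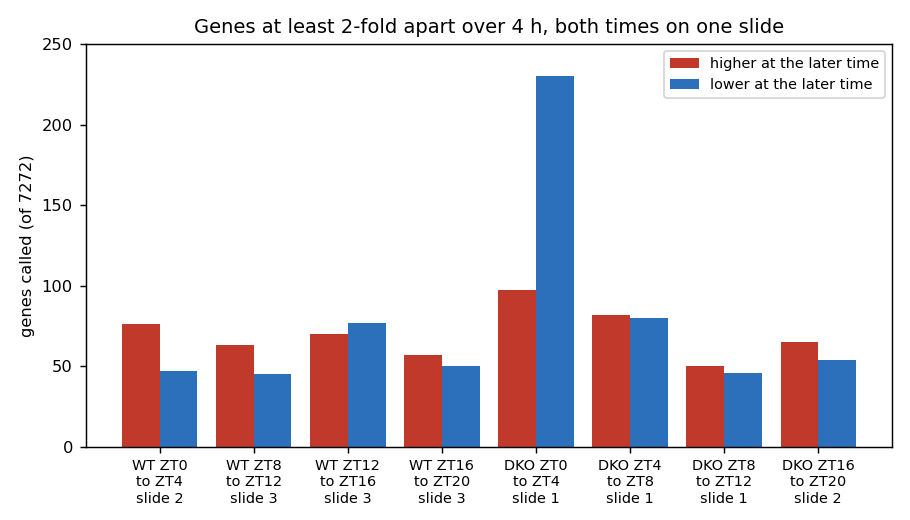
Number of genes called higher (red) and lower (blue) at the later time in each 4 h step whose times share a slide (vertical axis, of 7272 genes), by genotype. The wild-type ZT0 to ZT4 step has 76 and 47, and the DKO ZT0 to ZT4 step has 97 and 230.

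The same 4 h in DKO were set beside the wild-type step, with which they share no array. The DKO ZT0 sample was itself set apart by immune genes. The neutrophil marker Lcn2 was at 14.40 there and at 9.16 in DKO at ZT4, and 25 acute phase genes had a median DKO difference of -0.72 against 0.02 in wild type. Of the 76 wild-type rises 57 had the same sign in DKO, with medians of 1.27 in wild type and 0.30 in DKO, and 13 were called higher in both. Of the 47 falls 27 had the same sign, with medians of -1.21 and -0.09, and 5 were called lower in both. These genes were chosen by their size in wild type, a choice that by itself tends to make the DKO medians smaller. Over all genes 1.33% were called higher and 3.16% lower in DKO. No same-sign share over all genes was computed, so the same-sign counts are a description. Dbp differed by 4.10 in wild type and 2.01 in DKO, Nr1d1 by 3.32 and 1.43, and Bcl6 by 1.44 and 1.49. Cyp17a1 differed by 3.18 in wild type and 0.09 in DKO, where it was at 12.78 at ZT0 already. In 12 genes the calls were opposite. Among these Tff3, a trefoil peptide, was at 5.79 and 5.90 against 7.58 and 7.88 in wild type and fell by 4.17 in DKO, from 12.26. Gldn, gliomedin of nerve, differed by 2.38 in wild type (at least 1.41-fold higher) and fell by 3.01 in DKO. The differences between the genotypes were not tested.

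Most called genes were nearer to the DKO level at ZT4 than at ZT0. The mean of the 6 DKO times was nearer to the ZT4 than to the ZT0 level for 64 of the 76 rises (84.2%) and 39 of the 47 falls (83.0%), against 66.1% of genes not called. With the DKO arrays of the same slide (ZT16 and ZT20) the counts were 63, 35 and 64.7%, and without DKO ZT0 65 and 38. The mean of the wild-type times ZT8 to ZT20 was nearer to ZT4 for 47 rises (61.8%) and 24 falls (51.1%), against 59.8%. These counts, and the choice of genes that follows, were added after the values were seen.

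Genes that separate the genotypes were then chosen by a gap of at least 1 on the log2 scale. The gap lay between the means of the 4 wild-type times ZT8 to ZT20 and those of the 6 DKO times. The ZT0 and ZT4 wild-type arrays did not enter the gap, but they entered the normalisation, the detection filter and the choice of probe. Moxd1 and Wfdc12 were at 5.6 and 6.1 over ZT8 to ZT20 and not detected there. They passed the filter through groups in which they were higher. Of 18 genes higher in DKO, 9 lay nearer to DKO at ZT0 and 16 at ZT4, and the median position moved from 44.4% to 87.1% of the way from the wild-type to the DKO mean. Of 12 genes lower in DKO, 2 and 4 lay nearer to DKO, and the median moved from 16.0% to 43.4%. Called among them were 5 rises (Appl1, Cyp2d12, Lpl, Moxd1 and Wfdc12) and 3 falls. Others, such as Iapp at 123% and 110%, had the DKO level at both times. The wild-type times ZT8 to ZT20 lay on a slide with no DKO array, so in the choice of these genes a slide difference and a genotype difference cannot be told apart. With DKO ZT16 and ZT20 as the only DKO times, 36 genes higher in DKO moved from 26.5% to 64.2% and 14 lower from 17.2% to 40.5%.

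Within the wild-type day ZT4 was the highest of the 6 times for 40 of the 76 rises (52.6%), against 15.2% of genes not called, and the lowest for 32 of the 47 falls (68.1%), against 14.9%. The rule makes ZT4 exceed ZT0 for each rise, so these shares are a description. ZT8 to ZT20 lay on another slide, so slide and time cannot be told apart here, and ZT0 was the highest time for 24.3% of genes not called. Nr1d1 was highest at ZT4 (10.51) and Dbp at ZT8 (14.80). Arntl, the BMAL1 gene, was at 9.51 at ZT0 and 9.66 at ZT4 and at 5.64 at ZT8, and in DKO it lay between 9.45 and 9.88 at all 6 times. Rgs16 was at 12.21 at ZT8, and Irs2 was highest at ZT4 (9.96). Usp2 was at 7.86 at ZT4, its lowest, and at 11.95 at ZT8. Angptl8 was at 13.55 at ZT0, its highest, and at 11.91 at ZT4.

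**Figure D5:**
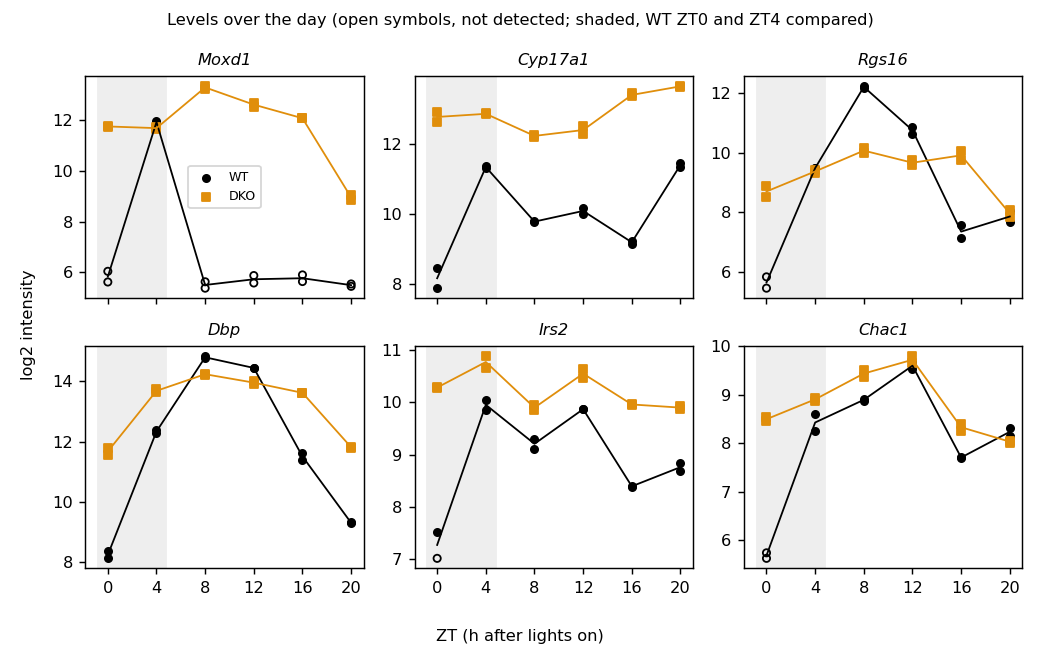
Log2 intensity (vertical axis) over the day (horizontal axis, ZT in h) of 6 genes higher at ZT4, in wild type (black circles) and DKO (orange squares). Points are technical arrays, open where not detected, and lines join means. Wild-type Moxd1 reaches the DKO range at ZT4 alone, whereas Dbp and Rgs16 go on rising to ZT8.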

How the data were processed

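Liver RNA was hybridised as biotinylated cRNA to Illumina bead arrays, per the labels' protocols. The submitters' processing notes name GenomeStudio without a version. Deposited signal is a linear intensity per probe and, per the file headers, was not normalized between arrays. The deposited detection p-value of a probe is relative to negative controls on that array. Another table deposited by the authors holds processed intensity values, with medians of 278.76 to 278.9 on the 4 arrays compared. It is linear, uncentred as far as the values show, and runs the same way as the signals, while how it was normalized stays unknown.

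In R 4.3.3, limma 3.58.1 corrected background by normexp (offset 16, control parameters estimated through detection p-values), followed by quantile normalization over 24 arrays and log2. Of 25697 probes, the platform annotation gave 1 gene symbol to 23978, several to 0 and none to 1719, and comparison with a RefSeq table updated 0 symbols. A probe was kept if detected (p under 0.01) on the 2 arrays of at least 2 of 12 groups, which left 10243 probes, 586 of them without a symbol. The brightest probe of a symbol was used, giving 7272 genes. Of the called genes, 13 rises and 6 falls had other kept probes, and 2 had a probe of opposite sign. Where a time had no array detected, the fold is a lower bound against the higher of the lowest detected signal and the probe's own signal, averaged over the 2 arrays. Counts and medians were computed in Python 3.11.15 with pandas 2.3.3, and the call rule was checked on simulated data.

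Named genes were the measured clock genes, Moxd1, the 10 largest rises and 10 largest falls, up to 3 called genes in each other list or else its largest difference, up to 5 detected at 1 time only in each direction, and up to 6 called in opposite directions in DKO. Predicted transcripts were passed over. Further list members and called genes were named after their values were seen. The arrays compared, the gene lists and the rules were chosen with earlier results of these data known. The number of RNA samples, 1 for each time, limits the precision. Alternatives were other background, normalization, filter and probe choices, the authors' values, a 1.5-fold minimum and leaving out each array.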

Additional observations from a re-analysis of the deposited data

Results flagged for a closer look

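In 12 genes the arrays moved one way from ZT0 to ZT4 in wild type and the other way in DKO, each by at least 2-fold on measured means. In 6 of them neither wild-type ZT0 array was detected, so the wild-type step is only bounded and the log2 values carry no order of size. The bound was at least 1.54-fold for Tff3, 1.41-fold for Gldn, 1.34-fold for Fabp5, 1.12-fold for Slc1a4, 2.77-fold for Wfdc12 and 2.10-fold for Nfe2. The difference between the genotypes was not tested. It is given as the wild-type minus the DKO step of measured means on the log2 scale. In 8 genes, of the 76 called higher in wild type, DKO was called lower, against 3.16% of all genes. The difference was 6.05 for Tff3, 5.39 for Gldn, 3.70 for Fabp5 and 3.70 for Slc1a4. It was 3.11 for Wfdc12, 2.93 for lipoprotein lipase (Lpl), 2.90 for the transcription factor Nfe2 and 2.51 for the phosphatase Acpp. In 4 genes, of the 47 called lower in wild type, DKO was called higher, against 1.33% of all genes. The difference was -2.88 for Gsta2, -2.74 for Phlda1, -2.73 for Serpina4-ps1 and -2.21 for the thioesterase Acot1.

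The DKO ZT0 sample, which enters each of these values, had the high Lcn2 level given above. The part of its immune gene levels in these differences was not tested. Lpl was at 11.38 and 11.36 at ZT0 and at 12.90 and 12.79 at ZT4 in wild type, and fell by 1.45 in DKO. Phlda1 fell by 1.48 in wild type and rose by 1.26 in DKO.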

How the results depend on the processing

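The counts were 76 higher and 47 lower genes. An offset of 50 gave 50 and 30, no background correction gave 23 and 15, and the authors' values gave 23 and 15. All of these were among the genes called with the offset of 16. Requiring detection on all 4 arrays gave 32 and 32 among 6094 genes, which by construction leaves out genes detected at 1 time only. A 1.5-fold minimum gave 343 and 323. Median scaling (79 and 36), quantile normalization over the 4 arrays (68 and 43) or the 8 arrays of the slide (70 and 43), no filter (76 and 48), and the mean of probes (71 and 45) stayed within 1.5 times, as did separate probes (106 and 66). Leaving out 1 array gave 88 to 107 higher and 61 to 76 lower, with 76 lower without ZT4 array 1 and 71 without ZT4 array 2. A lone array cannot overlap its own pair, so that rule is looser by construction.

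Of the 48 called named genes 13 kept the call in all 13 settings, and 0 of their 601 values changed sign. Tef and Usp2 were not called on the mean of their probes. Leaving out 1 array ended 9 named calls. Without ZT0 array 1 the difference was -0.88 for Cox7a1 and -0.99 for Elovl3. Without ZT0 array 2 it was -0.996 for Acot1, 0.69 for Des, -0.997 for Nop2, 0.99 for Slc13a2 and -0.94 for Tnnc1. Without ZT4 array 1 it was 0.95 for Slc13a2. Without ZT4 array 2 it was 0.98 for Acsl3, -0.94 for Cox7a1, 0.84 for Des, -0.92 for Elovl3 and 1.00 for Gstm3. The median signs of lipogenesis, cholesterol, endoplasmic reticulum chaperone, fatty acid oxidation, Kupffer, ribosomal and respiratory chain genes held in all 13 settings. No paired analysis was possible because the replicate numbers mark technical arrays of 1 RNA sample per group and the comparison has no test. Signal over background limits the 36 rises and 7 falls that were not detected at the lower time.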
